A study of Mus musculus with 6 samples.

Results

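Promoter regions in which captured methylated DNA differed between fibroblasts and the induced neurons made from them were described at 3 dpi. All rows of the authors' 2 tables for this comparison were taken, and each region was called lower or higher by the library that held more reads. That gave 5216 regions of the 29559 in the series' 5 comparisons with fibroblasts: 3777 lower at 3 dpi and 1439 higher. Reads were the only values that chose them, because the tables hold only regions that passed the authors' test on the same reads, so every read count below is a description and none was tested again.

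The study followed DNA methylation in mouse cells of the ICR strain by methylated DNA immunoprecipitation sequencing (MeDIP-seq), with 1 library for each of 6 groups. The groups compared here were mouse embryonic fibroblasts (MEF), taken from embryos at E13.5 and labelled as the negative control, and induced neurons derived from MEF and kept in neuronal medium until 3 dpi. Both carry the label of 3 to 5 passages. Induced neurons of 1, 5 and 7 dpi and primary hippocampal neurons from 1-day-old pups, the positive control, appear only beside the 3 dpi values. The labels do not say what dpi stands for, which agent converted the fibroblasts, how many of them had converted or the sex of the embryos. DNA from unconverted fibroblasts in a 3 dpi culture cannot be told apart from DNA of induced neurons. The cell types could not be checked by marker expression, since only DNA was captured.

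In mammals DNA is methylated mainly at the cytosine of the dinucleotide CG (CpG), and the antibody of MeDIP pulls down fragments in proportion to how many methylated cytosines they carry. Promoters rich in CpG are unmethylated in most cells, with germline, imprinted and X-inactivated genes as the classical exceptions, while promoters poor in CpG are often methylated where the gene is silent. A fibroblast that turns into a neuron has to shut down matrix and mesenchymal genes and to switch on neuronal genes that were silent.

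The sequences below show how different some of the captured promoters were in CpG content. They are examples, and CpG content was not compared over the lists. Shown are RefSeq windows (GRCm38.p6, the mm10 assembly) of some of the members named in the results that follow. They run 5′ to 3′ on the strand of the gene, each 300 bases long from 250 bases before the start to 50 after it. Capitals mark every CG. Across all 32851 windows of that table the median was 7 CG.

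Fkbp6, a gene of male meiosis, was higher at 3 dpi, and its whole window (chr5:135349995-135350294, minus strand) lay inside the region. The window holds 21 CG, and 24.8% of all windows hold as many or more.
Fkbp6: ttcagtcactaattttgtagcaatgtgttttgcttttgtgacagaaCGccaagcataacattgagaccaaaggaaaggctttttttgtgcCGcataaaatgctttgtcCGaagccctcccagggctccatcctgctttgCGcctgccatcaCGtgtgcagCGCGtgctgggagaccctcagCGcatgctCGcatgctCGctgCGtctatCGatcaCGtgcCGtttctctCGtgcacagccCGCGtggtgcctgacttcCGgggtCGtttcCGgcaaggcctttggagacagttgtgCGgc
Syce1, which codes for a protein of the synaptonemal complex that holds paired chromosomes together, was higher. Its window (chr7:140787805-140788104, minus strand) holds 14 CG, a number that 36.3% of windows reach.
Syce1: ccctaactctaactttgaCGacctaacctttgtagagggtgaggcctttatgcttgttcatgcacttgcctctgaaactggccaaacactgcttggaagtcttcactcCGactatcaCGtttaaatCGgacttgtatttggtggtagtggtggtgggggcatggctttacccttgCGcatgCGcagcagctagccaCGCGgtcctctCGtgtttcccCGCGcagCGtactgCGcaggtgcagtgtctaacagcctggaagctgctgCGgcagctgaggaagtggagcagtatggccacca
Stk31, a germ cell kinase gene, was lower. Its window (chr6:49395289-49395588, plus strand) holds 29 CG, a number that 12.9% of windows reach.
Stk31: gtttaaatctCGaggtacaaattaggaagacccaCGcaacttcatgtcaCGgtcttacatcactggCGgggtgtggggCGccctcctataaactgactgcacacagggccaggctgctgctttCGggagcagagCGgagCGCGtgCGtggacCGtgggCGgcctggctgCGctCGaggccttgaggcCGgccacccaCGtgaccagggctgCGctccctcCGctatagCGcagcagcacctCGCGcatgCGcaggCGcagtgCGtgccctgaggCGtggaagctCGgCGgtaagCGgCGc
Mobp, which codes for a protein of the myelin sheath made by oligodendrocytes, was lower. Its window (chr9:120149492-120149791, plus strand) lay wholly inside the region and holds 5 CG, a number that 62.0% of windows reach.
Mobp: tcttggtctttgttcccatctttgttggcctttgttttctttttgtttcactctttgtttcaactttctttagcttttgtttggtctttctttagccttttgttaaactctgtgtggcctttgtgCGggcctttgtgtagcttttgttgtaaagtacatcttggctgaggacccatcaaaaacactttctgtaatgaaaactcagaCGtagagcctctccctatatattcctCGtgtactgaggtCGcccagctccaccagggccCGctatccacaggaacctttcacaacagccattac
Neurod4, a proneural transcription factor, was lower. Its window (chr10:130280089-130280388, minus strand) holds 7 CG, a number that 52.1% of windows reach.
Neurod4: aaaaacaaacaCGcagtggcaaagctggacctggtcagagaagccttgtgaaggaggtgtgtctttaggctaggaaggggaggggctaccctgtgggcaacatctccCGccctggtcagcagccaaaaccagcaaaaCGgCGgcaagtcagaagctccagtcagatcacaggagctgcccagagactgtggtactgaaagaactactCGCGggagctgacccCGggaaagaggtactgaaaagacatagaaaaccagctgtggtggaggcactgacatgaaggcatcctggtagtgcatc
4931408C20Rik had a lower region of 220 bases that lay wholly inside its window (chr1:26687411-26687710, minus strand), and that window holds 0 CG on either strand.
4931408C20Rik: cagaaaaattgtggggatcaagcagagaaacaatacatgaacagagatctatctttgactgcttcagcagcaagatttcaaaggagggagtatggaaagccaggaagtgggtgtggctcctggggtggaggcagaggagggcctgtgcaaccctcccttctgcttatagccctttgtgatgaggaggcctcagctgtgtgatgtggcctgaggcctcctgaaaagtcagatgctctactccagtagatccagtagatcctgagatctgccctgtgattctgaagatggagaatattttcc

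The values behind the regions were small. In the library with more reads the median was 13 reads for lower regions and 12 for higher regions, and the smallest was 11 in both directions. Regions with 11 or 12 reads made up 45.6% of the lower list and 55.1% of the higher list, and 30 or more reads were seen in 29 lower and 18 higher regions. The library with fewer reads held 0 reads in 3442 lower regions (91.1%) and in 1356 higher regions (94.2%). Most of the comparison is therefore between a handful of reads and none. A region with 11 reads against 0 has p = 9.42e-05 in the authors' deposited table (as at Kcnq1ot1, +1187 bp), and 1001 lower and 497 higher regions sit at 11 reads. A p above 0.0001 is given there for 7 lower regions, up to 0.00114, and for 0 higher regions. No replicate exists, no p-value was computed here, and library totals were not analysed, so a difference in depth between the libraries cannot be told apart from a difference in methylation. Intervals are exact 95% intervals of counting error only, since copies made by PCR cannot be told from separate molecules. A fold against 0 reads is a bound computed with that library set at 3 reads.

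Lower regions made up 72.4% of the list (71.2 to 73.6%). With all MEF reads multiplied by 0.75 and the same minimum of 11 reads the share came to 44.2%, and with all 3 dpi reads multiplied by 0.75 it came to 91.6%. Each scaling can by its construction remove regions of a single direction, so these values show how near the regions lie to the minimum and do not say how deep the libraries were.

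The regions belonged to 3480 genes in the lower list and 1380 in the higher list, and 264 genes stood in both. Of 26220 mouse genes in the reference, 13.2% had a lower region and 5.23% a higher region, and these shares are the background for each gene group below. By gene class, protein-coding genes were listed in 14.5% (lower) and 5.63% (higher) of cases, long noncoding RNA genes in 7.65% and 3.34%, microRNA genes in 7.08% and 2.20%, and transcribed pseudogenes in 11.4% and 9.35%.

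After Sfi1, a gene of many copies with 38 reads at 3 dpi and 82 in MEF, the lower regions of largest difference were those of Prmt7, Grb2 and Mobp. Prmt7, an arginine methyltransferase, had 7 reads at 3 dpi and 47 in MEF in a region centred 1907 bp downstream of its transcription start site (TSS), a ratio of 6.71 (3.02 to 17.6). Tdrd6, a Tudor domain protein of the germ cell chromatoid body, had 2 reads against 35 at -1131 bp (17.5-fold lower, 4.50 to 150). The alpha subunit of the proteasome core Psma5 had 0 reads against 31 at +865 bp, at least 10.3-fold lower. Of these 3, Prmt7 kept the most reads at 3 dpi. Slx4ip, a partner of the SLX4 nuclease scaffold, had 4 against 35 at -1447 bp, and Hsd17b11, a steroid dehydrogenase, 3 against 34 at -1694 bp. Ctnna3, the alpha-T catenin of heart cell junctions, had 3 against 33 at +1316 bp. In the other comparisons, which share the same MEF library, Hsd17b11 had 1, 2 and 0 reads at its site at 1 and 5 dpi and, in the authors' scaled reads, at 7 dpi. Psma5 had 1, 0 and 0 there. Both sites were chosen for their large difference from this MEF library, and only listed regions give values. Low reads at the other times are therefore no separate support.

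The higher regions of largest difference were in multi-copy sequence. 2700054A10Rik had 471 reads at 3 dpi and 178 in MEF, and Sfi1, a centrin-binding centrosome gene with many partial copies, 387 against 170 (2.28-fold, 1.90 to 2.74). Erdr1, in the pseudoautosomal region, had 183 against 49 (3.73-fold, 2.71 to 5.23), and Dux, a repeated homeobox gene that acts in the early embryo, 69 against 27 (2.56-fold, 1.62 to 4.15). How reads were shared among copies of such genes is not given in the sources used here, so these values are uncertain. Fkbp6, which is not such a repeated gene, had 63 reads against 11 across its start site (5.73-fold, 2.99 to 12.1). Kpna1, an importin that carries proteins into the nucleus, had 42 against 9 at -1812 bp (4.67-fold, 2.24 to 10.9). Asmt, the last enzyme of melatonin synthesis and, like Erdr1, pseudoautosomal, had 63 against 26 at +617 bp (2.42-fold, 1.51 to 3.99). At all of these sites MEF also held reads, from 9 at Kpna1 to 178 at 2700054A10Rik.

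**Figure D1:**
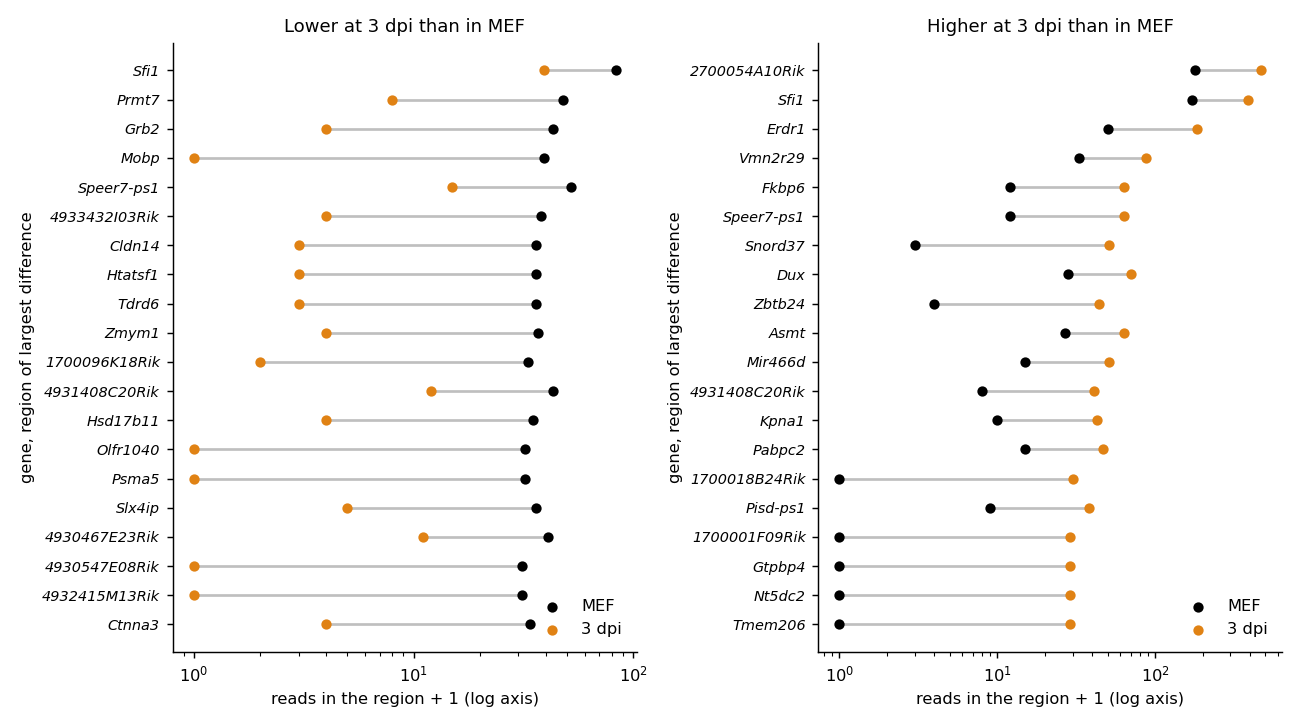
Reads in MEF (black) and at 3 dpi (orange) in the region of largest difference of 20 genes in each direction, 1 library each, on a log axis of reads + 1. On the left most 3 dpi points lie near 0 reads, from Mobp at 0 to Sfi1 at 38; on the right the points of both libraries are high for 2700054A10Rik (471 against 178) and MEF is at 0 for Gtpbp4, Nt5dc2 and Tmem206.

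Position along the promoter was nearly the same in both directions. Upstream of the TSS lay 47.2% of lower regions (45.6 to 48.8%) and 48.6% of higher regions (46.0 to 51.2%), and within 500 bp of the TSS 19.9% (18.6 to 21.2%) and 18.3% (16.3 to 20.4%). The intervals overlap for both measures. Fewest regions fell beside the start site. The bin from -500 to 0 bp held 9.93% of lower and 8.41% of higher regions, and the bin from 0 to 500 bp 9.93% and 9.87%. The bin from 1500 to 2000 bp downstream held 16.1% and 14.9%. Regions higher at 1 dpi than in MEF were placed otherwise, 30.4% within 500 bp (26.5 to 34.6%) and 34.3% upstream. The higher list at 5 dpi held 24.9% within 500 bp (22.4 to 27.5%) and 40.8% upstream. Neither interval within 500 bp meets that of 3 dpi. Higher regions at 7 dpi lay close to those of 3 dpi, with 18.7% and 48.6%, and primary neurons had 21.03% and 48.4%. Such intervals count regions of 1 library and give no spread between samples. No sample-level test of these differences is possible with 1 library each. What did differ between the directions was length: 25.8% of lower regions were exactly 380 bp long, the commonest length there, against 7.85% of higher regions, whose commonest length was 200 bp. Lengths and positions are multiples of a 20 bp grid.

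**Figure D2:**
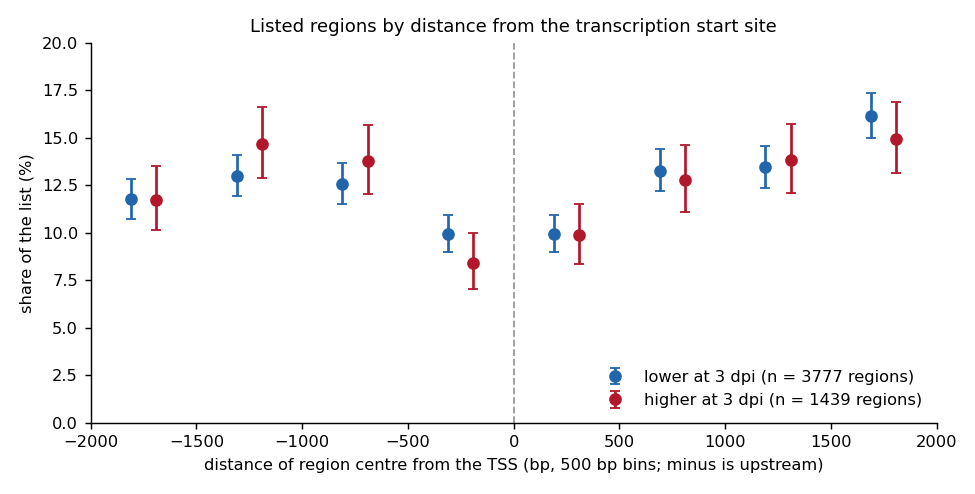
Share of the lower (blue) and higher (red) list in each 500 bp bin of distance between region centre and TSS, with exact 95% intervals of counting error. Both lists dip around the TSS, to 9.93% for lower regions and 8.41% for higher regions, and rise to 16.1% and 14.9% in the last bin downstream.

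Few listed regions coincided with a peak that the authors called in the same libraries. Of 3756 distinct lower loci 39 overlapped a MEF peak (1.04%, 0.739 to 1.42%) and 2 a 3 dpi peak, and of 1436 higher loci 25 overlapped a 3 dpi peak (1.74%, 1.13 to 2.56%) and 6 a MEF peak. Folds of peaks are the authors' own enrichment values. Among lower regions in MEF peaks, Ppp2r5d, which codes for a B56 subunit of the phosphatase PP2A, had 5 reads against 32 at -1328 bp in a peak of 7.58-fold. Sertad4 had 0 against 20 and 0 against 19 in neighbouring regions at -1803 and -1563 bp, both in a peak of 7.39-fold. Mrpl4, a protein of the mitochondrial ribosome, had 0 against 25 at -946 bp in a peak of 5.17-fold, and Trex2, an exonuclease gene on X, 0 against 20 at -347 bp in a peak of 5.36-fold. Among higher regions in 3 dpi peaks, Fkbp6 lay in a peak of 11.4-fold. Pdha2, the testis form of a pyruvate dehydrogenase subunit, had 22 against 2 at +675 bp and 14 against 0 at +965 bp in 1 peak of 6.97-fold. Cartpt, the precursor of the CART neuropeptide, had 24 against 2 at -1197 bp (12-fold, 2.98 to 105) in a peak of 7.00-fold. Of the 25 higher loci in 3 dpi peaks, 6 also lay in a MEF peak: both regions of Vmn2r29, a vomeronasal receptor gene, in peaks of 12-fold at 3 dpi and 7.26-fold in MEF, and the regions of Kpna1, Sfi1, Dux and Xist. Of the 39 lower loci in MEF peaks, 1 also lay in a 3 dpi peak, that of Xist.

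Genes of neuronal fate and function were listed in both directions. Of 48 reprogramming and proneural factors 3 were lower (6.25%, background 13.2%) and 4 higher (8.33%, background 5.23%). Otx2, a factor of the forebrain and midbrain, had 1 read at 3 dpi against 16 in MEF at +742 bp and 0 against 15 at +1962 bp. Neurod4 had 0 against 12 at +30 bp, and Tbr1, a factor of cortical projection neurons, 0 against 11. Phox2a, a factor of autonomic neurons, had 14 against 0 at -1892 bp, Lmx1a, a factor of midbrain dopamine neurons, 12 against 0, and Myt1, a neuronal zinc finger factor, 11 against 0. Of 25 repressors of neuronal genes and neuronal splicing factors 7 were lower (28.0%) and 2 higher. Rcor2, a corepressor that partners REST, had 0 against 16 at +287 bp, and Rbfox3, the splicing factor NeuN, 0 against 15 at +1462 bp. Hes5, a Notch target that holds back neurogenesis, had 0 against 12 at -882 bp. Id3, an inhibitor of proneural factors, was in both lists, with 0 against 16 at +1449 bp and 11 against 0 at -1961 bp. Splicing factor Nova2 was too, with 0 against 12 at +1483 bp and 11 against 0 at -1127 bp. The higher members of that list were thus also lower members.

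Of 32 Notch genes 8 were lower (25.0%) and 3 higher (9.38%), with 1 of them, Maml2, in both lists. Among them the ligand Dll1 had 0 reads against 11 at -927 bp, the coactivator Maml2 1 against 19 at -1228 bp and 12 against 0 at -1889 bp from another listed start site, the repressor Hey2 0 against 11 and the inhibitor Numb 0 against 11. Rbpj, the DNA-binding partner of the Notch receptor, had 16 against 0 at -1555 bp. The median in the higher library was 11 reads for the lower members, the least a listed region can hold.

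Synapse and calcium channel genes lay mostly in the lower list, as did all listed genes, whereas potassium channels were more evenly divided. Of 38 synaptic adhesion and scaffold genes 8 were lower (21.1%) and 2 higher (5.26%). Cntn5, an adhesion molecule of axons, had 0 reads against 19 at +246 bp, and Nptx1, a neuronal pentraxin, 0 against 16 at +150 bp, whereas Cdh2 (N-cadherin) had 15 against 0 at +1089 bp. Calcium channel subunits numbered 7 of 26 in the lower list (26.9%) and 0 in the higher list. Cacna1c, the pore of the L-type channel, had 0 against 12 at +399 bp, and its skeletal muscle relative Cacna1s had 0 against 15 at +270 bp. Of 92 potassium channel genes 12 were lower, a share near the background, and 9 higher (9.78%), a share above it. Sodium channels were lower in 3 of 14 and higher in 1. Of 44 glutamate and GABA genes 8 were lower (18.2%) and 5 higher (11.4%), and NMDA receptor subunits stood on both sides: Grin1 had 0 against 12, Grin2b 17 against 1 and Grin2a 11 against 0. Vesicle genes were close to the background in the lower list, with 5 of 37, such as Snap25 with 0 against 15 at +1081 bp, and 3 were higher (8.11%), such as Vamp1 with 19 against 2 at +1210 bp. Cytoskeleton and axon genes were lower in 6 of 40 and higher in 1, with the neurofilament relative Ina at 2 against 22 and Mapt (tau) at 0 against 17.

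Fibroblast genes were also found mostly in the lower list, at a share near the background. Of 53 matrix and mesenchymal genes 8 were lower (15.1%) and 1 higher (1.89%). The collagen gene Col5a2 had 0 reads against 16, Dcn (the proteoglycan decorin) 0 against 15 at -869 bp, Lox (a collagen cross-linking oxidase) 0 against 14, Pdgfra (a receptor of mesenchymal cells) 0 against 12 and Thy1 (a surface protein of fibroblasts and neurons) 0 against 12 at -13 bp. Col6a3 was the higher member, with 15 against 0 at -819 bp. Genes of skeletal and cardiac muscle, some of which neurons also use (Ryr2, a ryanodine receptor), were lower in 9 of 42 (21.4%) and higher in 1 (2.38%), with Tnnt3 at 0 against 16 and Nkx2-5 at 0 against 11. Olfactory receptor genes, expressed mainly in the nose, were lower in 209 of 1126 (18.6%) and higher in 60 (5.33%). Shares above 13.2% in the lower list were therefore seen in muscle and odorant genes as well as in neuronal lists.

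**Figure D3:**
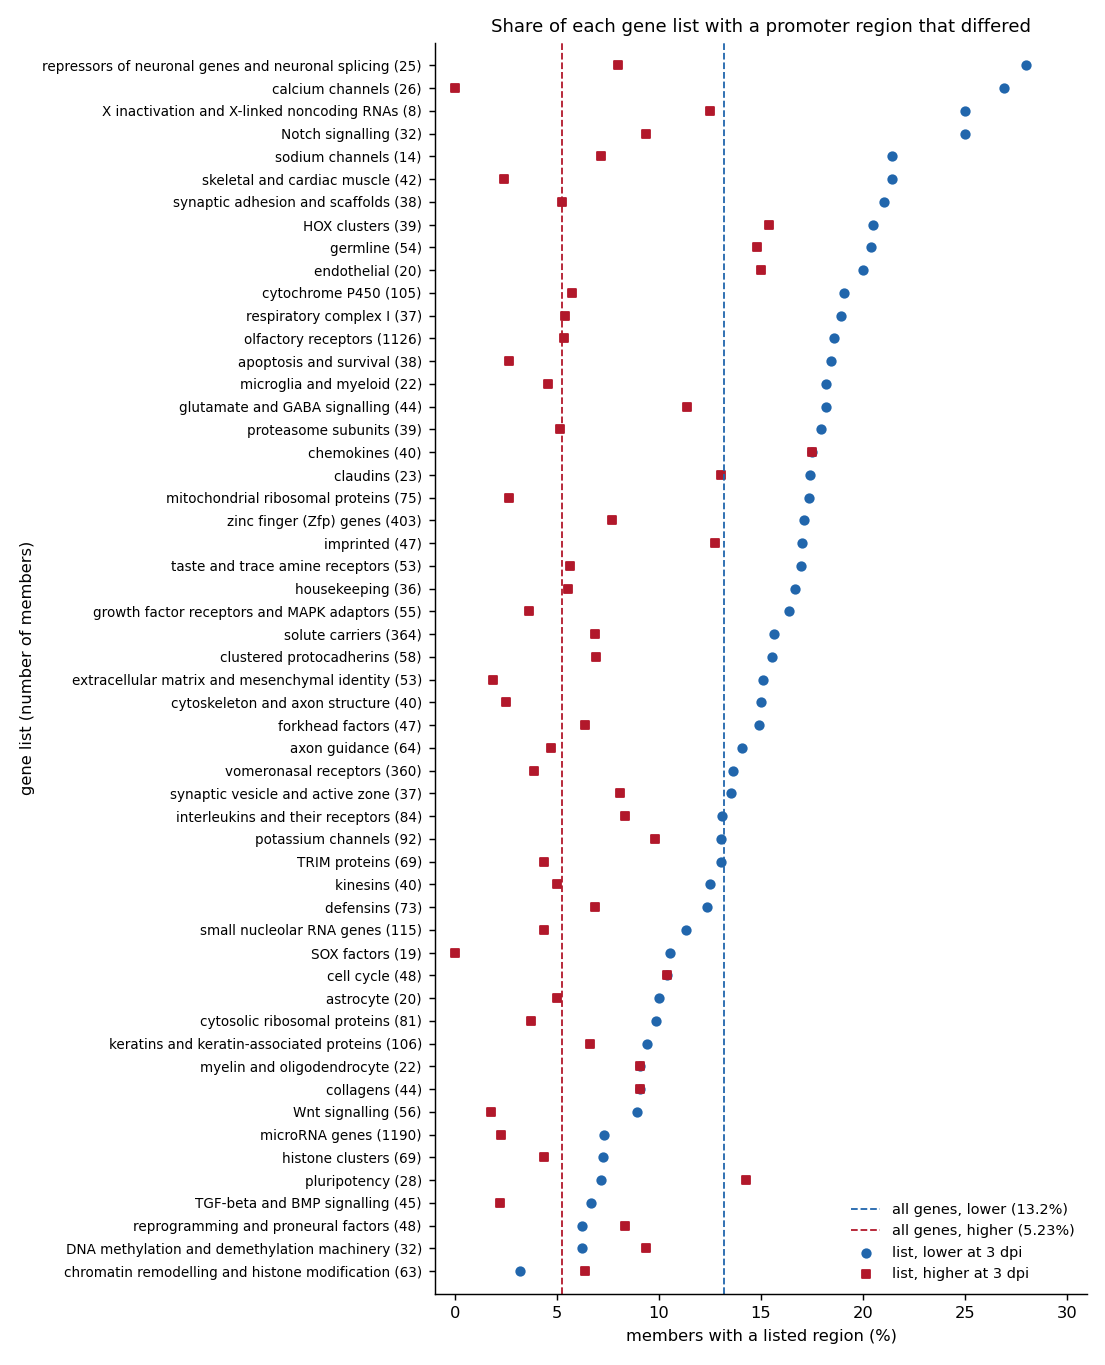
Share of each of 54 gene lists with a lower region (blue circles) or a higher region (red squares), beside the share of all reference genes (dashed lines, 13.2% and 5.23%). Repressors and splicing factors (28.0%) and calcium channels (26.9%) stand at the top for lower regions and chromatin genes (3.17%) at the bottom; chemokines (17.5%) and HOX genes (15.4%) lead for higher regions. Small lists move by several percent with 1 gene.

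Genes of the methylation cycle and of chromatin were few in both lists, and their shares of the higher list differ from the background by about 1 gene each. Of 32 genes of DNA methylation and demethylation 2 were lower (6.25%), Tet1 and Dnmt1, and 3 higher (9.38%), Zbtb24, Dnmt3l and Dppa3. The maintenance methyltransferase Dnmt1 had the most separate lower regions of any gene together with Mir684-1, 4 each. They held 0 reads at 3 dpi against 12 in MEF at +748 bp and 0 against 11 at +1093, -842 and -1242 bp. Zbtb24 ranked 9 among all higher genes by difference in reads. Dppa3, which protects the maternal genome from demethylation in mouse zygotes, had 11 against 0 at -103 bp. Of 63 chromatin genes 2 were lower (3.17%) and 4 higher (6.35%). Ezh1, a histone H3 methyltransferase of the Polycomb complex, had 0 against 16 at +1040 bp, and Chd3 had 0 against 11 at -1844 bp. In the higher list Mll1 (a histone H3 methyltransferase of the Trithorax group) had 15 against 0 at +934 bp and Ep300 (a histone acetyltransferase) 14 against 0 at +657 bp. Chd4 (a remodeller of the NuRD complex) had 12 against 0 and Hdac7 11 against 0.

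Germline genes, some of which are held silent in body cells by promoter methylation, appeared in both lists above the background, 11 of 54 lower (20.4%) and 8 higher (14.8%). Close to the start site, Syce1 had 19 reads against 0 at -36 bp, Dnd1, an RNA-binding protein of germ cells, 16 against 0 at -46 bp, and Sycp2, of the synaptonemal complex axis, 15 against 0 at +168 bp. Dazl, a germ cell RNA-binding protein, had 28 against 4 at +19 bp (7.00-fold, 2.45 to 27.5), beside 49 against 7 at 1 dpi and 81 against 7 at 5 dpi. In the opposite direction Stk31 had 0 against 22 at -243 bp, Tex12 0 against 15 at -262 bp and Syce3 2 against 21 at +263 bp, the last in a MEF peak of 5.58-fold. Synaptonemal complex genes were therefore split, with Syce1 and Sycp2 higher and Syce2, Syce3 and Tex12 lower. Fkbp6, another meiotic gene that was not on the list, had 34 against 5 at 1 dpi, 46 against 11 at 5 dpi and, in scaled reads, 30.9 against 5.18 in primary neurons, and its site at 7 dpi was not listed.

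Imprinted genes, methylated on the copy from 1 parent, were lower in 8 of 47 (17.0%) and higher in 6 (12.8%). Mest and Peg10, both expressed from the paternal copy, were each higher in a pair of regions, which flank the start site at Mest and lie downstream of it at Peg10. Mest had 16 reads against 0 at -239 bp and 25 against 4 at +178 bp (6.25-fold, 2.16 to 24.7) in a 3 dpi peak of 6.42-fold, and Peg10 13 against 0 at +205 bp and 11 against 0 at +455 bp in a peak of 6.79-fold. Usp29 had 12 against 0 at -60 bp. Kcnq1ot1, the antisense RNA of the Kcnq1 domain, had 4 against 33 at +717 bp (8.25-fold lower, 2.93 to 32.1) in a MEF peak of 6.65-fold and 11 against 0 at +1187 bp, so its directions differed within 470 bp. Slc22a18, a transporter gene of the same imprinted domain, had 0 against 14 at +646 bp. Of 28 pluripotency genes 2 were lower (7.14%) and 4 higher (14.3%). Dppa2 and Dppa4, neighbours whose proteins work together, were both higher upstream, with 20 against 0 at -373 bp and 15 against 0 at -614 bp, and Dppa2 was lower at +1397 bp with 0 against 16. Nanog, a core factor of pluripotent cells, had 0 against 14 at -1447 bp.

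Housekeeping complexes were listed as well. Mitochondrial ribosomal proteins were lower in 13 of 75 (17.3%) and higher in 2 (2.67%), proteasome subunits lower in 7 of 39 (17.9%) and higher in 2 (5.13%), and complex I subunits lower in 7 of 37 (18.9%) and higher in 2 (5.41%). Cytosolic ribosomal proteins stood below the background in both lists, lower in 8 of 81 (9.88%) and higher in 3 (3.70%). Psmd2, of the regulatory particle of the proteasome, had 1 read against 24 at -761 bp (24.0-fold lower, 3.91 to 987), an interval that shows how little a single read fixes. Cell cycle genes were lower in 5 of 48 (10.4%) and higher in 5 (10.4%), among them Ccnd3 (cyclin D3) with 18 against 0 and Cdkn1b (the inhibitor p27) with 0 against 12. Apoptosis genes were lower in 7 of 38 (18.4%) and higher in 1 (2.63%): Bax, a pore former of mitochondria, had 1 against 18, Casp8, an initiator caspase, 0 against 16, and Fasl, the death ligand, 22 against 0 at +585 bp.

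The X chromosome held 161 lower regions (4.26% of that list) and 22 higher regions (1.53%), beside 4.31% of reference genes. Lower regions made up 88.0% of the X regions (82.4 to 92.3%) and 71.9% of autosomal regions (70.6 to 73.1%), and no single autosome reached the X value, their range being 66.7 to 76.1%. At 1 dpi the shares were 97.2% on X and 84.9% on autosomes and at 5 dpi 84.5% and 72.3%, while in the comparisons with scaled reads they lay closer, X 42.9% and autosomes 40.9% at 7 dpi, X 45.1% and autosomes 41.9% in primary neurons. All of these use 1 MEF library, and the labels give the sex of neither cell source. Of the 22 higher X regions, 4 belonged to G530011O06Rik, with 13 to 19 reads at 3 dpi and 0 to 2 in MEF. They lie from 169978541 to 169980720 bp of X. The region of the pseudoautosomal gene Asmt, which starts at 170673161 bp, is also among the 22. Pseudoautosomal sequence is shared with Y, and the X shares were not computed without it. The noncoding RNA gene Xist, which silences an X chromosome, had 29 reads against 3 at +713 bp and 2 against 24 at +943 bp. These regions overlap by 60 bp, and both lay in peaks of nearly equal height in the 2 libraries. The MEF peak was 7.39-fold with a summit signal of 40 at +766 bp, and the 3 dpi peak 7.34-fold with 39 at +615 bp. Ftx, a neighbouring noncoding RNA gene that promotes Xist, had 0 against 12 at -166 bp.

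**Figure D4:**
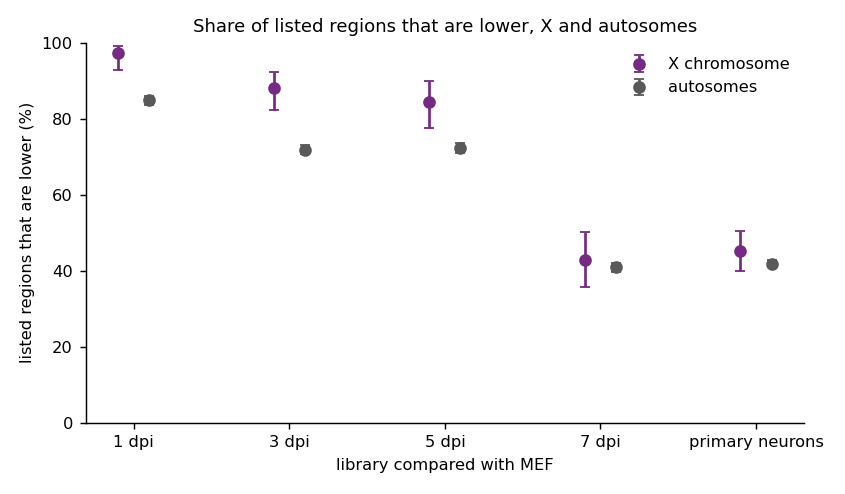
Share of listed regions that are lower than MEF on the X chromosome (purple) and on autosomes (grey) in the 5 comparisons, with exact 95% intervals of counting error. At 3 dpi X stands at 88.0% and autosomes at 71.9%; at 7 dpi and in primary neurons, where the authors scaled the reads, the values are within 5 percentage points.

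Some genes had opposed regions. The 264 genes with both directions, 5.74% of the 4596 listed genes, held 306 pairs of opposed regions, 67 of them with centres within 500 bp of each other and 32 with no base between the regions. Of all reference genes 13.2% had a lower region and 5.23% a higher region, so unrelated lists would also share genes. Whether 264 exceeds that overlap was not tested. In 252 pairs both regions had 0 reads in the library with fewer reads. Snord37, a small nucleolar RNA gene, changed direction between neighbouring regions: 2 reads at 3 dpi against 21 in MEF at -250 bp, 50 against 2 at -500 bp (25.0-fold, 6.57 to 212) and 17 against 0 at -1110 bp, with the first 2 regions overlapping by 20 bp inside 1 peak of 3 dpi of 7.02-fold. At 4931408C20Rik 11 against 42 at -70 bp adjoined 40 against 7 at -350 bp, and the first of these is the region whose window holds 0 CG. At Cyp2a4, a steroid hydroxylase gene with close relatives, 2 against 23 at +1139 bp adjoined 17 against 0 at +1389 bp, and at Sipa1l2 3 against 21 at +1030 bp lay 100 bp from 22 against 0 at +1410 bp. Because direction was called for each region by its reads, no single direction can be given for these promoters.

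**Figure D5:**
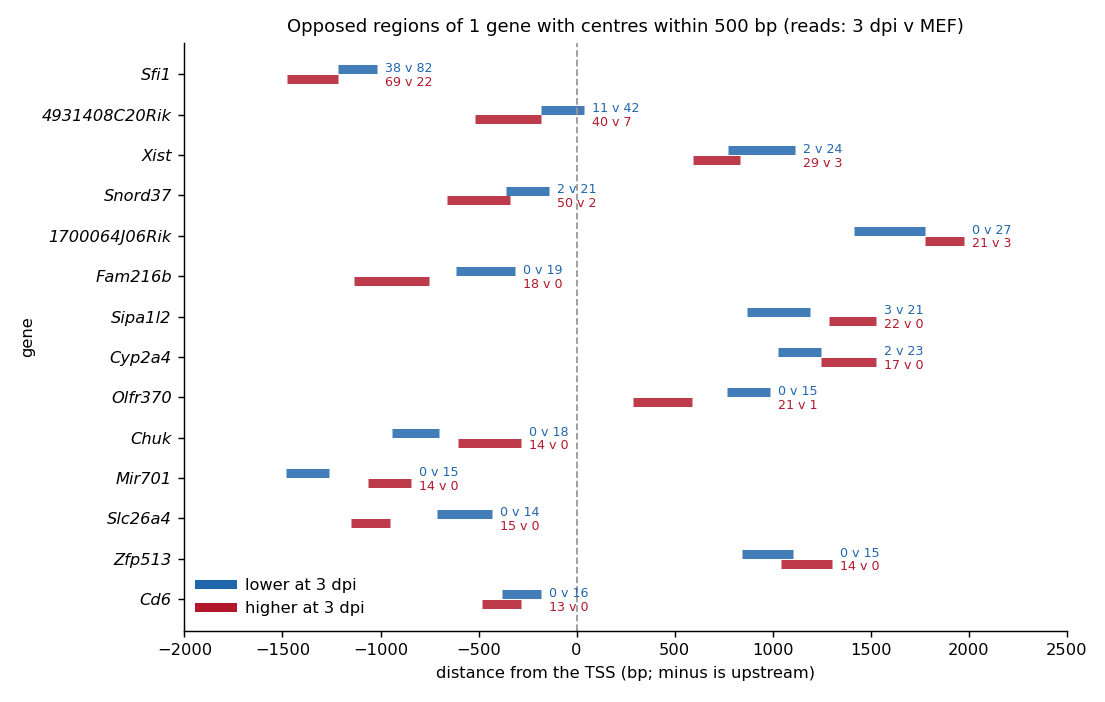
Lower (blue) and higher (red) regions of 14 genes whose opposed regions have centres within 500 bp, drawn to scale along the distance from the TSS with reads at 3 dpi and in MEF beside each. At Xist and Snord37 the bars overlap, by 60 and 20 bp, and at 4931408C20Rik and Cyp2a4 they adjoin.

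MicroRNA genes stood below the background in both lists, 87 of 1190 lower (7.31%) and 27 higher (2.27%). The pair Mir208a and Mir208b, which lie in introns of the cardiac myosin heavy chain genes Myh6 and Myh7, had opposite directions although their mature products share a seed. Mir208b had 1 read against 29 at +1746 bp (29-fold lower, 4.81 to 1184) and 0 against 12 at -1124 bp, and Mir208a had 18 against 0 at -1298 bp. In RefSeq (GRCm38.p6, chromosome 14, minus strand) the mature 3p forms run as follows, 5′ to 3′, with the seed (bases 2 to 8) in capitals, and differ only after it.
mmu-miR-208a-3p: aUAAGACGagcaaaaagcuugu
mmu-miR-208b-3p: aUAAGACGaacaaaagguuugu
At the Mir208a site MEF held 0 reads in the 3 dpi comparison. In the 5 dpi comparison it held 25 in an overlapping region whose centre lay 10 bp away, where the 5 dpi library had 75. The same MEF library thus gave unlike counts in overlapping regions, and its value of 0 at Mir208a is uncertain. The site of Mir208b read 4 against 29 at 1 dpi and 6 against 29 at 5 dpi. Mir761 had 0 against 23 at +136 bp.

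Other gene families stood on both sides. HOX genes, which pattern the body axis, were lower in 8 of 39 (20.5%) and higher in 6 (15.4%). Hoxa7 had 0 reads against 18 at +723 bp and Hoxd9 0 against 13 at -82 bp, Hoxa6 15 against 0 at +1924 bp, and Hoxa2 and Hoxb1 were in both lists. Chemokines were as often lower as higher, 7 of 40 each (17.5%). Cxcl10 had 0 against 13 at +1359 bp and 15 against 0 at +929 bp, and Ccl5 0 against 13 at -752 bp and 11 against 0 at +298 bp. Clustered protocadherins, adhesion molecules that tell neurons apart, were lower in 9 of 58 (15.5%) and higher in 4 (6.90%), from Pcdhgb6 with 0 against 20 to Pcdhb20 with 18 against 0. Zinc finger genes named Zfp were lower in 69 of 403 (17.1%) and higher in 31 (7.69%), with Zfp383 at 0 against 23 and Zfp708 at 17 against 0. Genes marking other cell types of brain and vessel were listed at 2 of 20 lower for astrocytes, 4 of 22 for microglia and myeloid cells and 4 of 20 for endothelium, with 1, 1 and 3 higher. Ptprc, the common leukocyte antigen, had 0 against 23 at +476 bp, and the integrin gene Itgam both 0 against 17 at -1699 bp and 18 against 0 at -369 bp.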

How the data were processed

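DNA methylation was measured by MeDIP-seq in 6 groups of mouse cells with 1 library each, and the comparison of 3 dpi with MEF uses 1 library of each. Tools and build listed, per the submitters' processing notes, are Bowtie2 2.1.0, CASAVA and mm10. Which peak caller, test and thresholds were used is not given in the sources used here. Per the labels, 1 input library served all groups; it was not analysed here.

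The deposited promoter tables give, per region, a whole read count of each library at 1, 3 and 5 dpi, and for 7 dpi and primary neurons a signal that the authors scaled. The authors' log2 fold change, p-value and q-value stand in the same tables. Regions of the 3 dpi tables lie within 2000 bp of a TSS. The deposited peak lists give a fold enrichment (a ratio), the −log10 of a q-value and the summit signal of each peak. One label names the table of higher regions by another library's code, and the columns of the table itself name 3 dpi and MEF.

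Direction was set by the larger count. Shares have exact Clopper-Pearson intervals, and ratios of counts have exact intervals from the binomial split of their sum. Peaks and regions were called overlapping from 1 bp on. Values at other times come from listed regions that overlap by at least 50% of the shorter region. Genes were matched by identifier to RefSeq (GRCm38.p6), 4573 of 4596, and to RefSeq promoter windows of 76.3% of lower and 75.9% of higher genes. Under 80% had a window, so the planned comparison of CpG content over each list was void and was not run.

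The genes named are, in each direction, the 20 with the largest difference in reads, up to 4 members of each of 54 gene lists, the 5 genes with the strongest opposed regions, the 5 regions in the strongest peaks and the 5 genes with most regions. Others were chosen after their values were seen: the remaining members of a list, regions beside a TSS and opposed pairs. The members and the lists were chosen with earlier results of these data known. Alternatives were a stricter p, a higher read minimum, other depths, autosomes only, genes in place of regions, other peak overlaps and leaving out the commonest region length. The scripts were tested on simulated data. Python 3.11.15, numpy 2.4.6, pandas 2.3.3, scipy 1.17.1 and matplotlib 3.10.9 were used.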

Additional observations from a re-analysis of the deposited data

Results flagged for a closer look

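For 13 genes named here, a region listed at 3 dpi overlapped a region listed in the opposite direction in another comparison, 16 times in all. None of these differences was tested, and all comparisons share the MEF library. Values at 7 dpi and in primary neurons are scaled reads, and each pair gives the other library before MEF.

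Of the regions higher at 3 dpi, Fkbp6 (63 reads against 11 at -69 bp) had 0 against 13.46 in primary neurons at -329 bp, next to a higher region at +61 bp, and Snord37 (50 against 2 at -500 bp) had 1.93 against 23.81 there at -330 bp, next to a higher region at -590 bp. Xist (29 against 3 at +713 bp) had 0 against 20.78 at 7 dpi, and Vmn2r82 (18 against 1) had 1.15 against 16.45 at 7 dpi. Xist and Snord37 also had lower regions at 3 dpi, at +943 and -250 bp. Cyp2a4 (17 against 0 at +1389 bp) had 0 against 19.92 at 7 dpi and 0 against 15.53 in primary neurons. The 7 dpi region also overlapped the lower 3 dpi region of Cyp2a4 at +1139 bp, where the direction was the same. Col6a6 (12 against 0) had 0 against 13 at 1 dpi, and G530011O06Rik (13 against 0 at +277 bp) had 0 against 11.39 in primary neurons. The 1 dpi region of Col6a6 likewise overlapped its lower 3 dpi region at +1738 bp (0 against 13).

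Of the regions lower at 3 dpi, Cd44 (1 against 16 at -1955 bp), a hyaluronan receptor, had 22.22 against 2.07 in primary neurons. Slc17a7 (0 against 15), a vesicular glutamate transporter, had 16.42 against 1.04 there, and Ceacam20 (0 against 12) had 12.56 against 0. Id3 (0 against 12 at +149 bp) had 11.55 against 0 at 7 dpi, and Sipa1l2 (3 against 21) had 11 against 0 at 1 dpi. Slc22a13 (0 against 11 at -725 bp) had 14 against 0 at 1 dpi, 11 against 0 at 5 dpi and 16.17 against 0 at 7 dpi.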

How the results depend on the processing

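Of 51 recomputed values, 31 stayed within their counting error or within 1.5 times the reported count and 20 moved. With at least 15 reads in the higher library, lower regions numbered 1140 and higher regions 345, the lower share was 76.8%, and the shares with 0 reads were 70.6% (lower) and 75.9% (higher). With the authors' p at most 1e-05 these were 913, 298, 75.4%, 88.2% and 87.9%, and overlap with a peak of the library holding more reads rose to 3.30% and 4.05%. With MEF reads times 0.75, lower regions fell to 1140, the lower share to 44.2% and the lower regions with 0 reads to 70.6%. With 3 dpi reads times 0.75, higher regions fell to 345 and those with 0 reads to 75.9%, and the lower share rose to 91.6%. Without regions of the commonest length the lower share was 71.0%, and 92.2% of lower regions had 0 reads. Autosomes alone, genes in place of regions and stricter peak overlap moved no value, and no alternative moved the shares upstream of the TSS. The depth alternatives move these values by their own construction. Alternatives for CpG content were not run. No paired analysis was possible because each group has 1 library. Since the smallest listed regions hold 11 reads against 0, a moderate change can go unlisted. An unlisted promoter therefore cannot be read as unchanged.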

Other observations

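Families outside the neuronal and fibroblast programmes had members in both lists. Cytochrome P450 genes, which oxidise drugs and steroids, were lower in 20 of 105 and higher in 6 (5.71%), with Cyp2c67 at 1 read against 27 and Cyp2j12 at 24 against 1 (24-fold, 3.91 to 987) at -178 bp. Solute carriers were lower in 57 of 364 (15.7%) and higher in 25 (6.87%), with the anion transporter gene Slc22a13 at 1 against 29 and Slc25a21, a mitochondrial carrier, at 19 against 0. Defensins, antimicrobial peptides, were lower in 9 of 73 (12.3%) and higher in 5 (6.85%), with Defb28 at 1 against 29. Keratins and keratin-associated proteins were lower in 10 of 106 (9.43%) and higher in 7 (6.60%), among them Krt75 with 18 against 0 at +234 bp. Potassium channels were lower in 12 of 92 and higher in 9 (9.78%), with Kcna10 at 0 against 20 and Kcnj13 at 17 against 0.

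Signalling lists differed in their shares. Growth factor receptors and adaptors of the MAPK pathway were lower in 9 of 55 (16.4%) and higher in 2 (3.64%), with the receptor Fgfr1 at 0 reads against 13 and Fgfr4 at 16 against 0. Wnt genes were lower in 5 of 56 (8.93%) and higher in 1 (1.79%), with the coreceptor Lrp6 at 1 against 16 and the nuclear effector Tcf7l2 at 11 against 0. TGF-beta and BMP genes were lower in 3 of 45 (6.67%) and higher in 1 (2.22%), both directions being seen at the receptor Bmpr1b with 1 against 16 at -1992 bp and 11 against 0 at -672 bp. Axon guidance genes were lower in 9 of 64 (14.1%) and higher in 3 (4.69%), with the semaphorin Sema7a at 0 against 16 and the netrin receptor Unc5c at 13 against 0. Robo4, an endothelial receptor of that family, was in both lists with 0 against 11 at -635 bp and 15 against 0 at -1695 bp.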
